A study of Schizosaccharomyces pombe with 6 samples.

Results

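The genes described here encode proteins that the deposited annotation of fission yeast (Schizosaccharomyces pombe) calls specific to this species. They were taken from the product text of the authors' deposited comparison table, which must begin with "S. pombe specific" or its long form. Of 115 such products, 16 genes with mug or meu names (genes first named for their rise in meiosis) were left out, and so was 1 further gene. The remaining 98 genes, of 6986 in the count table, fell into 15 genes of named families and 83 single genes. The families were DUF999 with 10 genes, the GPI anchored proteins with 2 genes and UPF0321 with 3 genes. The only gene of the set named for a "5Tm protein family" was counted among the single genes, because no other gene of the set carried that name.

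The study asked how loss of Duf89 changes transcription in growing cells, and compared 3 libraries of a wild-type strain (JS 77) with 3 libraries of strain AS2300. AS2300 is h- and carries a duf89 deletion made with a hygromycin resistance gene (duf89delta::hygR). Both strains were grown to log phase at 30 ºC in YES, a rich medium, and polyadenylated RNA was sequenced. The wild-type libraries had been deposited earlier with another series and sequenced together with the mutant, per the series text. The labels call the mutant replicates biological and only number those of wild type, so the spread of the latter may be technical and p-values measure only the spread between these libraries. Each genotype was 1 strain, so the deletion and any other difference between the strains cannot be told apart.

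As a rule a species-specific gene has no recognisable relative in other organisms, and most such genes have no known function. The set here rests on product text alone, and the product of SPCC757.06 names a similarity to a region of alpha-galactosidase. DUF and UPF names mark families of proteins grouped by sequence alone. A GPI anchor is a glycolipid that holds a protein on the outer face of the plasma membrane or passes it to the cell wall. In fission yeast, repeated gene families lie in the subtelomeres, the stretches of chromosome next to the telomeres, where heterochromatin keeps many genes at a low level. Of the 98 genes, 97 were found in the RefSeq annotation of assembly ASM294v3.

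The families hold genes of similar sequence, and some members are near-copies whose reads can match more than 1 gene. The 2 GPI anchored genes have coding sequences of 837 bases (SPAC212.08c) and 372 bases (SPAC212.12). Their aligned part was 98.9% identical over 372 bases with 4 differences. Gaps are not counted in any identity given here. The stretch that holds all 4 differences is shown to let the copies be compared. It runs from base 232 of each coding sequence, 5′ to 3′ on the coding strand, from RefSeq (ASM294v3). Capitals mark bases of SPAC212.12 that differ from the longer gene, and the lines differ in length because the alignment has gaps.
SPAC212.08c: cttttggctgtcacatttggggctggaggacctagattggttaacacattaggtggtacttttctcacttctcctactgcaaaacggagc
SPAC212.12: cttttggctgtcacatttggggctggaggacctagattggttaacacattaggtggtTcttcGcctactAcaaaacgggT

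For UPF0321 the first 90 coding bases are shown, because here the near-copies on chromosome III and the more distant gene on chromosome I can be told apart by eye. Capitals mark bases that differ from SPCP20C8.02c, 3 in SPCC569.02c and 21 in SPAPJ695.01c. Over the aligned coding sequence the chromosome III genes were 95.5% identical, and SPAPJ695.01c was 76.1% identical to SPCP20C8.02c and 74.3% to SPCC569.02c.
SPCP20C8.02c: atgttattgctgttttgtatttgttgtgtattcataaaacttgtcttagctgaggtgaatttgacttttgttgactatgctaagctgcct
SPCC569.02c: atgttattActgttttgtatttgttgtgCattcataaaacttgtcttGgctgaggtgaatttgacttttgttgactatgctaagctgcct
SPAPJ695.01c: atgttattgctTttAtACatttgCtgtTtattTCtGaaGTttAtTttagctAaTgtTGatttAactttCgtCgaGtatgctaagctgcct

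For DUF999, coding bases 205 to 294 are shown for the 2 genes with enough counts to be tested and for the nearest copy of the first of them. Capitals mark bases that differ from SPBCPT2R1.04c.
SPBCPT2R1.04c: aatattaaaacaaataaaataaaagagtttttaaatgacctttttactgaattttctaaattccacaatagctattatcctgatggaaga
SPAC212.01c: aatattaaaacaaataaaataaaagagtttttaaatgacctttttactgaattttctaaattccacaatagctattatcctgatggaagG
SPAC212.04c: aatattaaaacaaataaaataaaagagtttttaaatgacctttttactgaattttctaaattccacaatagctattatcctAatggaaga

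In that window SPAC212.01c and SPAC212.04c each differed from SPBCPT2R1.04c at 1 base. Over whole coding sequences, SPAC212.01c differed from SPBCPT2R1.04c at 1 of 843 aligned bases and SPAC212.04c at 128 of 839 (84.7% identity), so these 2 genes are more alike in the window than over their length. In the same comparison SPBC1348.01 and SPBCPT2R1.01c were identical over 810 bases. The identity of the 45 DUF999 gene pairs ran from 77.8% to 100%, with a median of 85.4%.

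The library totals ran from 18244492 to 21572536 counts. The targeted gene duf89 (SPCC1393.13) had 44.3 ± 2.1 CPM (counts scaled to library size with TMM factors) in wild type, against 13.2 ± 3.9 CPM in the deletion strain (SD, n = 3 each). This is a log2 fold change (log2 ratio, deletion over wild type) of -1.74, with an SE of 0.16. Reads of the gene remained in the deletion libraries, at 229, 234 and 373 counts against 808, 897 and 794 in wild type, and gene-level counts do not show whether they lie inside or outside the deleted part. Mating-type genes of the minus type were at 0 counts in all libraries apart from 2 counts of mat3-Mc in wild-type replicate 3, so they check no label. Mitochondrial genes had 851, 1078 and 727 counts in the wild-type libraries and 0 in each deletion library. Whether the counts of both genotypes were made and filtered in the same way is not known. Any such difference cannot be told apart from the deletion. With mitochondrial and rRNA genes left out of the fit, 17 species-specific genes were higher and 14 lower, against 16 and 16 with them. The 98 species-specific genes took 0.139%, 0.140% and 0.147% of all counts in wild type, against 0.151%, 0.159% and 0.170% in the deletion.

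Most species-specific genes were expressed at a low level. Their median was 3.15 CPM in wild type, against 71.2 CPM for all protein-coding genes. Per kilobase of transcript the medians were 4.19 and 38.8 CPM. The genes were also short, with a median coding length of 360 bases against 1137 bases, and 75 of 98 had a single coding exon. The 5 genes with the highest CPM held 44.7% of the counts of all 98. A level under 1 CPM (mean of the 6 libraries) was found for 38 genes, and a level over 50 CPM for 8 genes.

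Enough counts for a test were present for 67 of the 98 genes. Of these, 16 were higher in the deletion, 16 were lower and 35 did not pass the test (edgeR's quasi-likelihood test, Benjamini-Hochberg adjusted p under 0.05 over 6045 genes). The background was broad: of all 6045 genes tested, 53.3% were called, 28.8% higher and 24.6% lower, and of the 4959 protein-coding genes 33.2% were higher and 23.9% lower. Among the species-specific genes tested the share was 23.9% in each direction, which is not above the background. Their median log2 fold change was -0.11, against 0.00 for all genes and 0.03 for protein-coding genes.

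Changes of at least 2-fold were found for 6 species-specific genes that rose and 5 that fell. Among all genes tested 0.562% rose and 2.48% fell by that much, and among protein-coding genes 0.464% and 0.847%. With 6 and 5 genes no more than the counts can be read from this. Complete separation of the groups, with all libraries of one genotype above all of the other, was seen for 18 genes with the deletion higher and 17 with wild type higher. For all genes tested the shares were 32.9% and 30.4%, and for protein-coding genes 37.1% and 29.5%. Of the 67 genes, 3 passed the filter on low counts through 1 group: SPAC212.08c and SPCC569.04 through the deletion and SPAC6C3.03c through wild type. They had to differ, and a count over the 67 includes them.

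The 31 untested genes had at most 18 counts in any library. Among them 6 were at 0 in all 6 libraries: SPAC2F3.07c, SPAC750.07c, SPBC1348.15, SPBCPT2R1.02, SPBPB21E7.05 and SPCC191.10. Their change was not tested. Without a filter 92 of the 98 genes entered the fit. The 1 call gained there was that of SPAPB18E9.05c, which is not among the 31.

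Family genes and single genes differed in how many could be measured. Of the 15 family genes 6 were tested, with 2 higher, 0 lower and a median log2 fold change of 0.50 (0.16 without a filter on low counts). By an adjusted p under 0.05 the 2 calls were both GPI anchored genes. Of the 83 single genes 61 were tested, with 14 higher, 16 lower and a median of -0.13. The 16 include the 5Tm gene SPBPB2B2.19c, whose product has a family name. Without wild-type replicate 2 the single genes higher were 9. The difference between the classes was not tested, because the families were chosen by name and hold genes that share sequence.

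**Figure D1:**
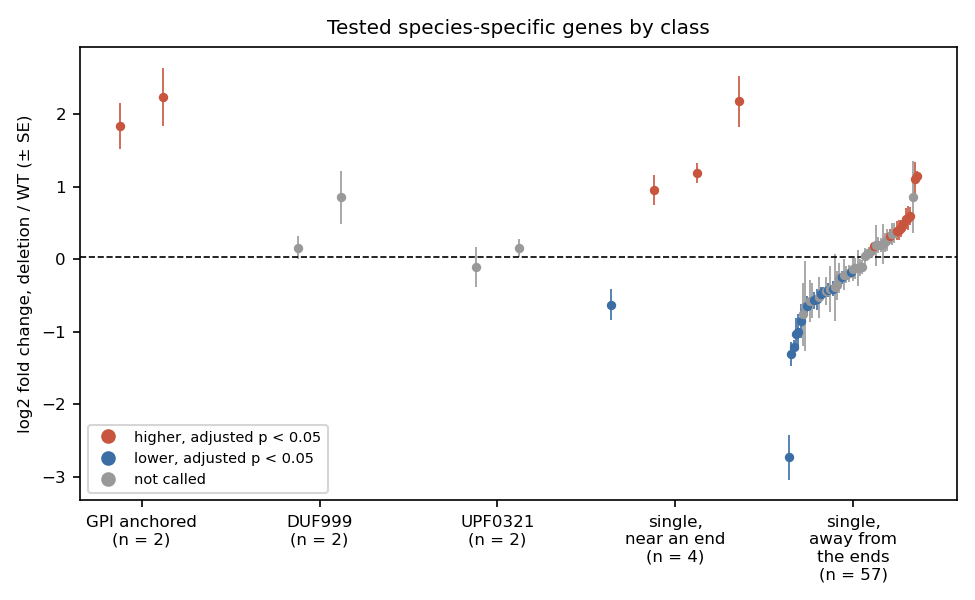
Log2 fold change (deletion over wild type, vertical axis, with SE as bars) of the 67 tested species-specific genes, by family or by place of the single genes; red is higher, blue lower and grey not called, and the dashed line is the median of all protein-coding genes (0.03). Both GPI anchored genes lie above 1.8, the DUF999 and UPF0321 genes are not called, and the 57 single genes away from the ends spread to both sides of the line.

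Both GPI anchored genes were higher in the deletion, from low levels. SPAC212.08c had 3, 2 and 4 counts in wild type against 14, 16 and 19 in the deletion. All 3 deletion libraries lay above all 3 wild-type libraries. The level went from 0.160 ± 0.055 to 0.777 ± 0.128 CPM (SD, n = 3 each), a log2 ratio of 2.24 (SE 0.40, adjusted p = 0.0019), which is 4.72-fold. Since the gene passed the filter on low counts through the deletion libraries alone, it had to differ to be tested. Without a filter the log2 ratio was 2.25 (adjusted p = 0.0032).

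The shorter copy, SPAC212.12, had 10, 12 and 23 counts in wild type against 63, 47 and 71 in the deletion. Here too the groups did not overlap, and the lowest deletion library was above the highest wild-type library by a wide margin. The level went from 0.796 ± 0.366 to 2.86 ± 0.54 CPM, a log2 ratio of 1.84 (SE 0.31, adjusted p = 0.0015), which is 3.57-fold. Summed over both genes the counts were 13, 14 and 27 in wild type against 77, 63 and 90 in the deletion, a ratio of 3.80 between the mean CPM values.

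The source of these reads is less certain than their number. The coding sequence of SPAC212.12 occurs 3 times in the genome without a mismatch. The other places are SPAC750.07c, a single gene of this set near the other end of chromosome I, and SPBCPT2R1.06c, a pseudogene. The deposited counts of SPAC750.07c were 0 in all 6 libraries, and those of the pseudogene were 0 apart from 1 count in deletion replicate 3. All 50-base windows of the SPAC212.12 transcript, and 51.6% of those of SPAC212.08c, were found elsewhere in the genome, on either strand. How reads with several matches were assigned is not stated in the labels, so the rise belongs to this group of copies and cannot be placed at 1 locus. When genes with 10% or more repeated windows were left out, neither gene was in the fit.

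Both genes lie near the left end of chromosome I, in place 13 and 18 of the annotated genes counted from the end. In the order of protein-coding genes they are direct neighbours. Each overlaps an annotated RNA on the other strand, and since the strand setting of the counting is not given, reads of the genes and of those RNAs cannot be told apart. With any 1 library left out the log2 fold change stayed between 2.00 and 2.49 for SPAC212.08c and between 1.64 and 2.28 for SPAC212.12, with adjusted p under 0.05.

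Another product in the set is linked to a GPI anchor. SPBP19A11.02c, a single gene whose product is predicted to be GPI anchored, was among the most abundant, at 136 ± 6 CPM in wild type against 145 ± 17 CPM in the deletion. Its counts were 2369, 2761 and 2557 against 3378, 3130 and 2636. The groups overlapped after scaling, and the log2 fold change of 0.09 (SE 0.08) did not pass the test (adjusted p = 0.37). Without deletion replicate 3 it was 0.21 and passed (adjusted p = 0.0084).

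The DUF999 family was carried by 2 of its 10 genes. SPAC212.04c had 144, 116 and 129 counts in wild type against 157, 183 and 146 in the deletion, with overlapping groups after scaling. Its level was 6.92 ± 1.00 and 7.72 ± 1.10 CPM, with a log2 ratio of 0.16 (SE 0.16, adjusted p = 0.43). Of its windows 59.3% are repeated elsewhere in the genome.

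SPBCPT2R1.04c had 107, 32 and 122 counts in wild type against 167, 183 and 180 in the deletion. The deletion libraries all lay above the wild-type libraries, and wild-type replicate 2 lay far below the other wild-type libraries. Its log2 ratio was 0.85 (SE 0.36), and the gene did not pass the test (adjusted p = 0.071). Without wild-type replicate 2 the log2 fold change was 0.44, the lowest value with any 1 library left out. It passed without wild-type replicate 1 (adjusted p = 0.039) or 3 (0.029). Since 90.4% of its windows are repeated and SPAC212.01c differs from it at 1 base, its reads could come from more than 1 copy.

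The other 8 DUF999 genes had few counts and were not tested. SPAC212.01c had 1, 5 and 7 counts in wild type against 11, 2 and 18 in the deletion. SPAC977.06 had 6, 7 and 3 against 11, 4 and 12, and SPBC1348.07 had 6, 5 and 3 against 7, 2 and 5. In each of the 3 genes the groups overlapped. SPBCPT2R1.01c had 5, 1 and 2 counts against 2, 6 and 2, and its identical copy SPBC1348.01 had 5, 1 and 5 against 2, 1 and 1. SPAC750.06c had 4, 1 and 0 counts against 2, 3 and 2. The last of them, SPBPB2B2.07c and SPBPB2B2.14c, had between 0 and 4 counts in a library. Again the groups overlapped in counts in each of these.

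A sum over the family does not depend on which of its genes a read was assigned to. The sum would miss any reads left out for matching several places, and it rests mostly on the tested genes. It was 281, 172 and 276 counts in wild type against 361, 389 and 366 in the deletion, or 13.0 ± 3.6 and 17.7 ± 1.2 CPM. The ratio of 1.36 was given no test. All deletion sums lay above the wild-type sums, and wild-type replicate 2 was again the lowest.

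Neither tested UPF0321 gene was called, and in each 19.5% of the windows are repeated elsewhere in the genome. SPCP20C8.02c had 149, 170 and 185 counts in wild type against 213, 182 and 232 in the deletion, a log2 ratio of 0.15 (SE 0.13, adjusted p = 0.34). SPCC569.02c had 40, 61 and 72 against 84, 44 and 52, a log2 ratio of -0.11 (SE 0.28, adjusted p = 0.76). Both had overlapping groups after scaling, and the sign of SPCC569.02c turned in several fits. An antisense RNA that overlaps SPCC569.02c, SPNCRNA.1298, rose by a log2 fold change of 0.47 (adjusted p = 0.031). The distant gene on chromosome I, SPAPJ695.01c, had 1, 3 and 3 counts against 0, 2 and 1 and was not tested. Summed, the family was at 12.1 ± 1.6 CPM in wild type against 12.8 ± 1.4 CPM in the deletion, a ratio of 1.06.

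**Figure D2:**
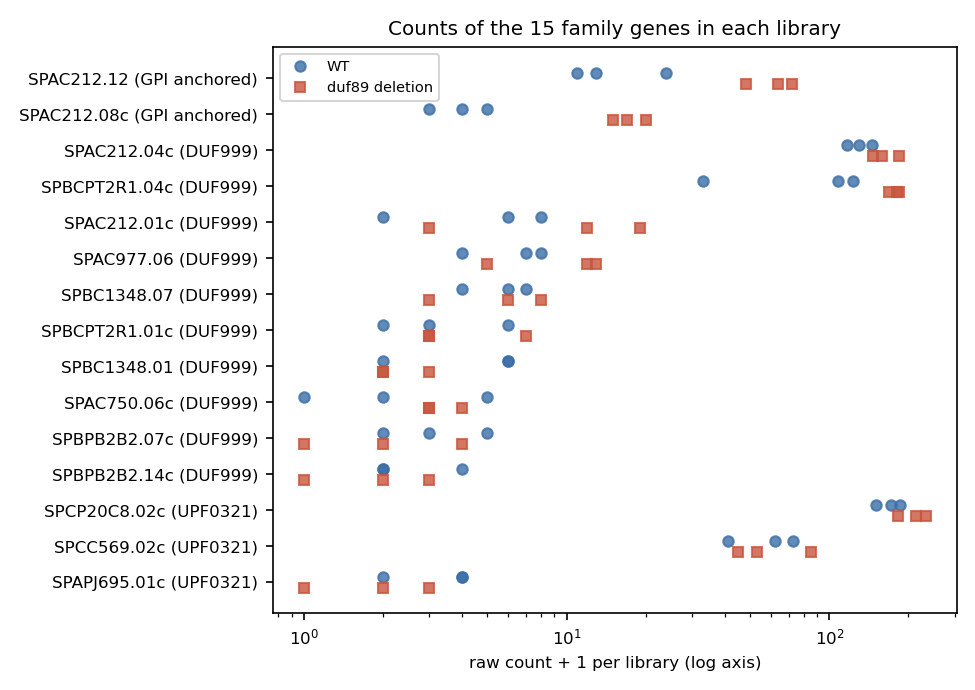
Raw count plus 1 in each library (log axis) of the 15 family genes, with blue circles for the 3 wild-type libraries and red squares for the 3 deletion libraries. In raw counts the groups stand apart for both GPI anchored genes and for SPBCPT2R1.04c. Those of SPAC212.04c only just separate here and overlap after scaling, and 9 of the family genes have too few counts for a test.

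Place on the chromosome was a property the choice of genes did not use. Among the 50 outermost annotated genes at an end of chromosome I, II or III lay 21 of the 98 genes, 13 of them family genes. Of these 21 genes 10 were tested, with 5 higher, 1 lower and a median log2 fold change of 0.90. Over all genes tested 28.8% were higher and 24.6% lower, and over protein-coding genes 33.2% and 23.9%. SPAC212.08c and SPCC569.04, both among the 5, had to differ to pass the filter, and without a filter the median was 0.34. The 76 genes with a place farther inside gave 57 tested, 11 higher (6 without wild-type replicate 2), 15 lower and a median of -0.14. For comparison, 72 other protein-coding genes near the ends gave 40 tested, 11 higher, 6 lower and a median of 0.11 with the filter. Their median without a filter was not computed. These are small counts of genes that share sequence, and the difference between them was not tested. Repeated sequence moved with place: 18 of the 21 genes near an end had more than 10% of their windows repeated, against 2 of the 76 others, and its part in the result was not tested.

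**Figure D3:**
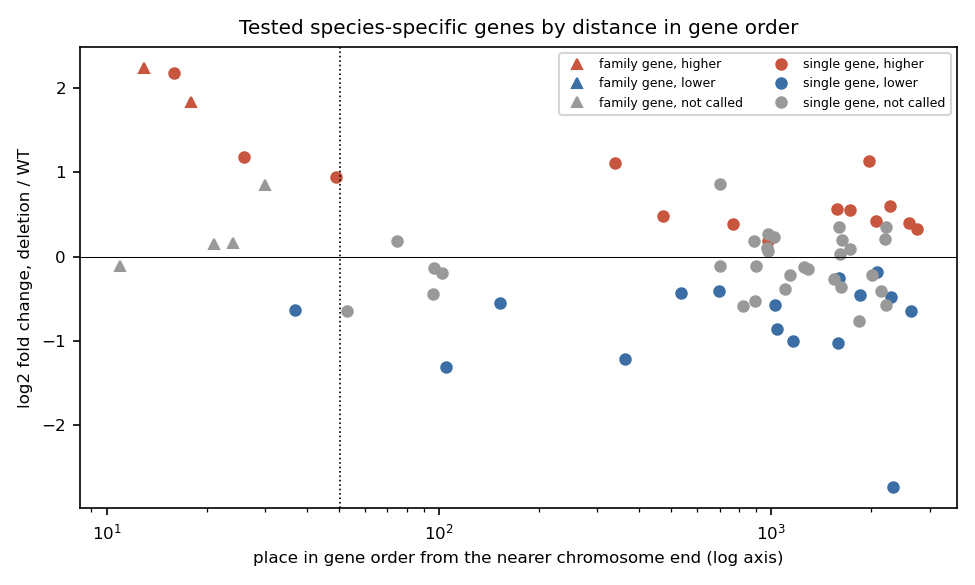
Log2 fold change (vertical axis) of the 67 tested species-specific genes against their place in gene order from the nearer chromosome end (log axis); triangles are family genes, circles single genes, and the dotted line marks place 50. Of the 10 genes to the left of the line 5 are called higher and 1 lower, where 28.8% and 24.6% of all genes tested were called.

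Single genes near an end included 3 that rose, the first by about as much as the GPI anchored genes. SPCC569.04, named here after its values were seen because its mean count is below the limit set for named genes, is in place 16 from the right end of chromosome III. It had 4, 5 and 7 counts in wild type against 22, 32 and 28 in the deletion, without overlap. Deletion over wild type, the log2 ratio was 2.17 (SE 0.35, adjusted p = 0.0011), and 0.437% of its windows are repeated, so few of its reads have other matches. This gene too passed the filter through the deletion alone, and without a filter its log2 ratio was 2.18 (adjusted p = 0.0015). It overlaps SPCC569.05c on the other strand, and without the strand setting the reads of these genes cannot be told apart.

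SPCC1884.01, with a long coding sequence of 1437 bases, is in place 26 from the left end of chromosome III. Its counts were 96, 107 and 126 in wild type against 256, 278 and 302 in the deletion. The groups were well apart, at 5.83 ± 0.73 and 13.3 ± 1.3 CPM, a log2 ratio of 1.18 (SE 0.14, adjusted p = 2.2e-04). An overlapping antisense RNA, SPNCRNA.1096, had a log2 fold change of 0.01 and did not pass the test (adjusted p = 0.92).

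SPCC757.06, whose product is described as similar to a region of alpha-galactosidase, is in place 49 at the same end. It had 29, 32 and 41 counts against 66, 77 and 77, again without overlap. On the log2 scale the change was 0.95 (SE 0.21, adjusted p = 0.0046).

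The 1 gene near an end that was called lower was SPBPB2B2.19c, the only 5Tm gene of the set. It had 65, 57 and 74 counts in wild type against 60, 41 and 41 in the deletion, and the scaled groups did not overlap. Its log2 ratio was -0.63 (SE 0.22, adjusted p = 0.032). All of its windows are repeated elsewhere in the genome, and the call was lost with each of wild-type replicates 1 and 3 and of deletion replicates 2 and 3 left out in turn (adjusted p up to 0.12).

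Away from the chromosome ends, the rise with the smallest adjusted p was that of SPBC25B2.08 on chromosome II. Its counts were 764, 860 and 971 in wild type against 2221, 2158 and 2019 in the deletion. The groups were far apart, at 46.0 ± 4.8 and 101.4 ± 5.1 CPM, a log2 ratio of 1.14 (SE 0.08, adjusted p = 1.0e-05). It overlaps SPBC25B2.09c and annotated non-coding RNAs on the other strand. Since the strand setting of the counting is not given, their reads cannot be told apart from its own.

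SPCC594.03 on chromosome III rose from 27, 30 and 44 counts to 75, 71 and 98, without overlap. Deletion over wild type, the log2 ratio was 1.11 (SE 0.24, adjusted p = 0.0041). Its neighbour SPCC594.04c, which overlaps it on the other strand and is annotated as a predicted steroid oxidoreductase, rose by 0.40 on the log2 scale (adjusted p = 0.0034).

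Smaller rises were found for SPBC14C8.11c (log2 fold change 0.60), SPAC27E2.14 (0.57), SPAC664.13 (0.56), SPBC428.10 (0.49) and SPAC16E8.18 (0.43). Among these, SPBC428.10 was the most abundant, with 629, 749 and 752 counts in wild type against 1125, 1134 and 1078 in the deletion. Its groups stood apart (SE 0.07, adjusted p = 9.3e-04). SPAC27E2.14, which codes for a short protein from 105 bases, had 182, 228 and 294 counts against 346, 372 and 448. Its groups only just separated after scaling, and without wild-type replicate 2 its adjusted p was 0.068.

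The most abundant species-specific gene by CPM, SPAPB24D3.07c, was called at the edge. It had 3152, 3989 and 3879 counts in wild type against 4486, 4922 and 6868 in the deletion, or 195 ± 18 and 258 ± 61 CPM. Deletion replicate 3 was far above the others. On the log2 scale the change was 0.40 (SE 0.14, adjusted p = 0.035), and without that library it was 0.22 (adjusted p = 0.058). In the authors' deposited table the gene did not pass, with an adjusted p of 0.20 and a log2 fold change of 0.39. The call was also lost without wild-type replicate 1 (adjusted p = 0.086) or 2 (0.073).

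The largest log2 ratio below 0 among the 67 tested genes was that of SPAC6C3.03c on chromosome I, which is named after its values were seen because its mean count is below the limit for named genes. It had 39, 32 and 32 counts in wild type against 5, 5 and 7 in the deletion. The groups were far apart, at 1.83 ± 0.28 and 0.269 ± 0.055 CPM, a log2 ratio of -2.74 (SE 0.31, adjusted p = 1.9e-04). It passed the filter through wild type alone, so it had to differ to be tested, and without a filter the log2 ratio was -2.73 (adjusted p = 3.1e-04). The gene overlaps an annotated RNA, SPNCRNA.813, on the other strand, and without the strand setting their reads cannot be told apart.

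SPAC11D3.19, in place 105 from the left end of chromosome I, fell from 163, 213 and 186 counts to 69, 89 and 95. The groups did not overlap, and the log2 fold change was -1.31 (SE 0.17, adjusted p = 4.1e-04). Its neighbour in the order of protein-coding genes, SPAC1F8.08, is also a species-specific gene. That gene had 239, 293 and 290 counts against 281, 226 and 297, overlapped between the groups and did not pass, at -0.19 (adjusted p = 0.19).

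SPBC1271.08c on chromosome II fell at a higher level. Its counts were 1101, 1210 and 1443 in wild type against 578, 590 and 643 in the deletion, far apart, at 66.5 ± 8.5 and 28.7 ± 2.0 CPM. Its log2 ratio was -1.21 (SE 0.10, adjusted p = 2.6e-05). The antisense RNA that overlaps it, SPNCRNA.1344, had 135, 169 and 177 counts against 75, 75 and 80, a log2 fold change of -1.22 (adjusted p = 3.5e-04). The strand pair thus fell by a similar amount, and without the strand setting it is not known how far the counts share reads. In gene order SPBC1271.08c is in place 364 from the left end of chromosome II, and tgp1 (SPBC1271.09), the glycerophosphodiester transporter gene of phosphate uptake, is in place 357. This transporter gene is outside the rule for named genes. tgp1 moved the other way, from 375, 433 and 518 counts to 3825, 3411 and 3755. Its log2 ratio was 2.89 (SE 0.09, adjusted p = 1.2e-07), the highest of the protein-coding genes tested. Between the genes, in place 360, the RNA SPNCRNA.1343, annotated as intergenic, fell, with a log2 ratio of -0.67 (adjusted p = 0.0024). It overlaps SPNCRNA.1698 and SPNCRNA.4682 on the other strand, and SPNCRNA.1698 overlaps tgp1 on the strand of tgp1. How far the counts of these share reads is not known.

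Further falls were found for SPCC338.18 (log2 fold change -0.85), SPAC7D4.08 (-0.64), SPBC1105.13c (-0.57), SPAC5H10.07 (-0.55), SPAC4G9.22 (-0.48), SPAC1399.06 (-0.45) and SPBC1685.17 (-0.43). SPAC1399.06 had 735, 795 and 721 counts in wild type against 651, 582 and 606 in the deletion. Its scaled groups did not overlap (SE 0.07, adjusted p = 1.0e-03). SPCC338.18 had 107, 110 and 62 counts against 65, 52 and 56, and its groups only just separated after scaling. Its call was lost without wild-type replicate 2 (adjusted p = 0.063), deletion replicate 2 (0.054) or deletion replicate 3 (0.054).

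Direct neighbours in the count table were read beside the called single genes named by the rule. Of 16 neighbours tested, 9 were called in the same direction, 1 in the other and 6 were not called. Of all genes tested 53.3% were called in either direction, 28.8% higher and 24.6% lower. SPAC7D4.08 overlaps the thioredoxin gene trx1 (SPAC7D4.07c) on the other strand, and that gene fell by 0.30 on the log2 scale (adjusted p = 6.2e-04), while SPAC7D4.15c, which also overlaps it, did not pass (log2 ratio -0.10, adjusted p = 0.19). Next to SPBC1105.13c, the transcription factor gene rsv2 (SPBC1105.14) fell by 0.55 (adjusted p = 0.0013). Beside SPAC664.13, which rose, the ammonium transporter gene amt2 (SPAC664.14) fell by 0.36 (adjusted p = 0.0012). Whether reads of neighbours contribute to the counts was not tested. Of the 98 species-specific genes, 69 overlap an annotated gene on the other strand in RefSeq and 15 on the same strand, against 4593 and 539 of 5111 protein-coding genes.

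**Figure D4:**
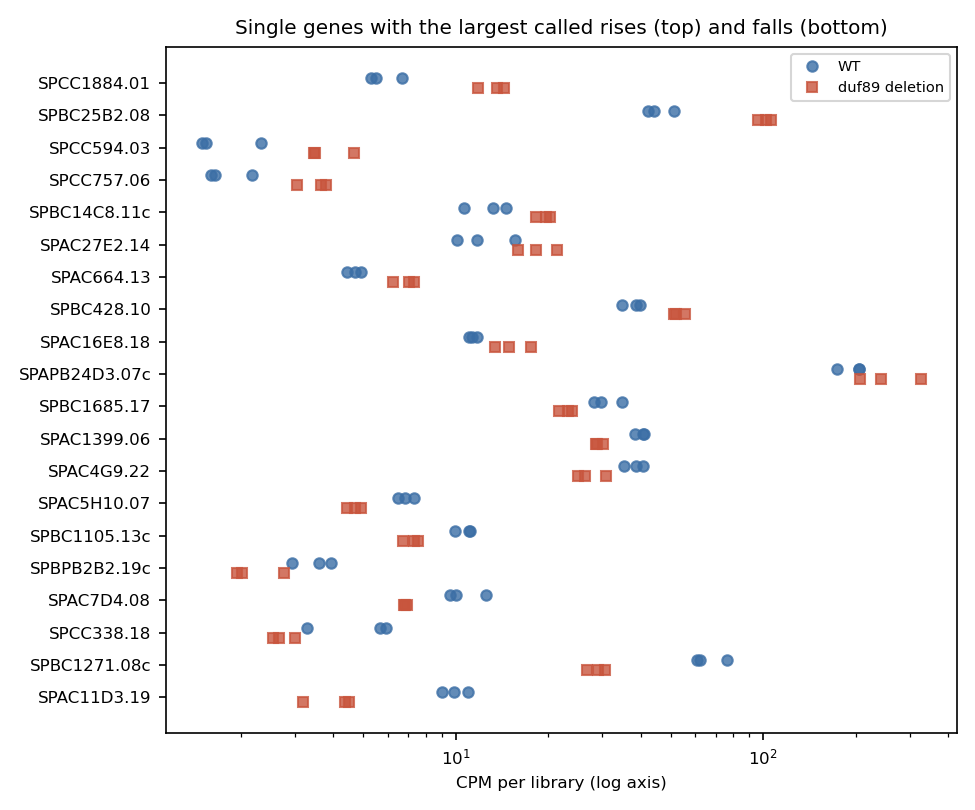
CPM per library (log axis) of the 10 largest called rises (top) and the 10 largest called falls (bottom) among single genes with a mean of at least 50 counts and groups without overlap; blue circles are wild type and red squares the deletion, 3 libraries each. The groups of SPBC25B2.08, SPCC1884.01, SPBC1271.08c and SPAC11D3.19 are far apart, and those of SPAPB24D3.07c and SPCC338.18 nearly touch.

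Of the 5 genes with the highest CPM, SPAPB24D3.07c and SPBC25B2.08 were called and the others did not pass. SPCC191.03c had 2078, 2451 and 2057 counts in wild type against 2549, 2456 and 1799 in the deletion, with a log2 ratio of -0.11 (SE 0.12, adjusted p = 0.43). Per kilobase of transcript SPAPB18E9.05c was the highest of the 98 genes, at 379 CPM per kilobase in wild type, followed by SPCC191.03c at 258. The counts of SPAPB18E9.05c were 2041, 1849 and 1932 against 2387, 2440 and 3525, with deletion replicate 3 far above the rest. Its log2 fold change of 0.36 (SE 0.14) did not pass the test (adjusted p = 0.051). It passed without wild-type replicate 1 (adjusted p = 0.035), deletion replicate 1 (0.015) or deletion replicate 2 (0.043).

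The gene next to it, SPAPB18E9.04c, is named after its values were seen for its product, a possible cell surface glycoprotein. Of its windows 32.3% are repeated elsewhere in the genome. It had 1030, 1322 and 1319 counts against 1129, 1222 and 1093, and its groups overlapped. It passed the test with a log2 ratio of -0.25 (SE 0.09, adjusted p = 0.042), a call that 7 of 17 other fits did not make, among them those that left out deletion replicate 1 or 3 or wild-type replicate 2 or 3 (adjusted p up to 0.18). In all, 26 of the 98 genes lie in 12 runs of direct neighbours among protein-coding genes. The GPI anchored genes were the only run in which more than 1 gene was called.

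The remaining called genes outside the rule for named genes, listed for completeness after their values were seen, were SPCC622.01c (log2 fold change 0.18), SPAC1B2.06 (0.32) and SPBC31F10.17c (0.39), which were higher. SPAC23H4.05c (-1.03), SPAC29E6.07, SPCC191.06 (-0.41) and SPBC29A3.21 (-0.18) were lower. The call of SPBC29A3.21 was lost with any 1 library left out (adjusted p up to 0.25) and that of SPAC1B2.06 without wild-type replicate 2 (0.074). SPBC31F10.17c did not pass when deletion replicate 1 or 3 was left out, or wild-type replicate 1 or 2 (up to 0.092). SPCC622.01c did not pass when deletion replicate 1 was left out, or wild-type replicate 2 or 3 (up to 0.086). SPAC29E6.07, annotated as expressed during the meiotic cell cycle, had 32, 45 and 40 counts against 25, 23 and 17, without overlap (adjusted p = 0.0079). The 35 genes that did not pass ran from -0.76 to 0.86 on the log2 scale, and in 30 of them the groups overlapped. Among them 5 more passed with 1 library left out: SPAC8E11.12 and SPCC191.04c without wild-type replicate 2 and 1, SPAP27G11.14c and SPBC1711.15c without wild-type replicate 3, and SPBC13G1.15c without deletion replicate 3.

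Related lists gave other counts in the same fit. Of 124 genes annotated as specific to the genus Schizosaccharomyces, 117 were tested, with 33 higher, 20 lower, a median log2 fold change of 0.02 and 1 gene past 2-fold. Their median level was 35.8 CPM in wild type. Of the 16 species-specific genes with mug or meu names 12 were tested, with 1 higher, 3 lower and a median of -0.25. Differences between these lists were not tested.

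In the authors' deposited table, 15 of the 98 genes were higher and 16 lower at an adjusted p under 0.05. All 31 were called in the same direction in the refit, which added SPAPB24D3.07c.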

How the data were processed

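Polyadenylated RNA of 6 libraries was made into stranded TruSeq libraries, per the labels' protocols. The deposited raw counts are whole numbers of reads. Build ASM294v2, DESeq, DESeq2, HTSeq 0.10.0, SAMtools and HISAT2 2.1.0 are listed without roles, per the submitters' processing notes. The labels state neither the strand setting nor how multiple matches were treated. The authors' comparison table holds log2 fold changes, p-values, a test score and average signal per group, per the file headers; it served for product names and beside the refit. Its overall mean covers more than these groups.

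Counts of 1 identifier on 2 lines were summed, giving 6986 genes. Counts were fitted with edgeR 4.0.16 (R 4.3.3; filterByExpr, minimum count 10, TMM, quasi-likelihood F test, group only, Benjamini-Hochberg over 6045 genes), and the SE is the size of the log2 ratio over the root of F. The script was tested on simulated data. Identifiers were matched to RefSeq (ASM294v3, 6846 genes, 98.0%) for gene order, coding sequences and the share of 50-base windows found elsewhere in the genome. As its build differs from that of the counts, no coordinates are given. Precision is limited by low counts, and the SE and p-values cover only the spread between these libraries. Replicates were not duplicates (chi-square per degree of freedom 5.85 to 15.6).

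The genes and lists were chosen with earlier results of these data known. Named are all tested family genes, the 10 largest called rises and 10 largest called falls of single genes with a mean of at least 50 counts and separated groups, the 5 highest by CPM, and duf89. Alternatives were other scalings, filters, DESeq2 1.42.0, limma-voom (3.58.1), a stricter threshold, leaving out each library, a replicate block, and leaving out mitochondrial and rRNA genes or repeated genes.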

Additional observations from a re-analysis of the deposited data

How the results depend on the processing

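No call among the 98 genes reversed under any alternative, and all 32 calls were kept under DESeq2 size factors and limma-voom. Without a filter the median was 0.16 for family genes and 0.34 near the ends. With at least 10 CPM in 3 libraries, which leaves fewer genes to test, 10 genes were higher and 7 lower, with 0 family genes higher, 7 single genes lower and a single-gene median of 0.10. Near the ends 1 was then higher and 0 lower, and 7 away from the ends were lower. At an adjusted p under 0.01, 9 genes were higher (7 single genes, 4 away from the ends) and 0 near the ends lower. Without repeated genes, 0 family genes were higher, and near the ends 3 were higher and 0 lower. The 1 fall near the ends was also 0 with cyclic loess and DESeq2.

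With 1 library left out, 11 to 18 genes were higher and 13 to 14 lower. Family genes gave 2 to 3 and 0, with a median of 0.56 to 0.88, against 0.50 with all libraries. The filter on low counts was applied anew each time, so 68 to 70 genes were tested, against 67. Genes can then enter through 1 group alone, so these medians do not measure how stable the value of 0.50 is. Single genes gave 9 to 15 higher (9 without wild-type replicate 2), 13 to 14 lower and a median of -0.14 to -0.09. Near the ends 5 to 6 were higher and 0 to 1 lower, away from them 6 to 12 and 13 to 14. Of 32 calls, 23 held with every library left out in turn. SPCC569.02c ran from -0.37 to 0.08 and SPCC191.03c from -0.17 to 0.052 (without deletion replicate 3). SPCC569.02c was 0.027 with cyclic loess, 0.083 without deletion replicate 2, 0.082 without wild-type replicate 3 and 0.0077 with deletion replicate 3 left out. SPBCPT2R1.04c was called by DESeq2 (adjusted p = 0.029) and limma-voom (0.035). Causes were not tested.

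The replicate numbers did not pair the libraries (r of -0.13, -0.17 and 0.26 between same-numbered libraries). With the replicate block, 20 genes were higher and 18 lower, with 6 calls gained. By total counts 19 were higher and 14 lower (all genes 2073 and 1050), and with cyclic loess 13 and 18 (1308 and 1447), against 16 and 16 (1739 and 1486). Depth limits the 31 untested genes.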
